A study of Mus musculus with 6 samples.

Results

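Collagen chains and the discoidin domain receptors, which bind collagen at the cell surface, were compared between early passage M0505 cells and STOSE cells. Every gene whose symbol had the form of a collagen chain (Col, a number, a, a number) was taken, together with *Ddr1* and *Ddr2*, and each was read from its brightest probe set by the mean of the 6 arrays. This gave 42 of the 20405 genes on the array, of which 40 were collagen chains and 2 were receptors. The chains fell into 11 fibrillar chains, 8 basement membrane chains and 21 others. The listed chains *Col6a4*, *Col6a5*, *Col22a1* and *Col26a1* were not analysed here.

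M0505 is a line of mouse ovarian surface epithelial cells, the single layer that covers the ovary, established from FVB/N mice. STOSE is the transformed line that arose from M0505 during long passage in culture, with no gene introduced, so each group stands for 1 line and its cells. Both lines carry abnormal chromosome numbers according to the study's karyotypes. They were grown in the same medium for mouse ovarian surface epithelium, with fetal calf serum, EGF and ITSS, and RNA of 3 samples per line, which the labels call biological replicates, was put on Affymetrix Mouse Gene 1.0 ST arrays. Nothing says whether the replicates were separate cultures. The p-values set the difference between the lines against the spread among arrays within each line, which may be technical. Values are robust multi-array average (RMA) values on the log2 scale, on which a difference of 1 is a 2-fold change. The values of different genes cannot be ranked against each other, since each probe set binds with its own efficiency.

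Collagens are secreted proteins in which chains wind around each other into a triple helix. Fibrillar collagens such as types I, III and V assemble into the cables of connective tissue. Type IV collagen forms the sheet-like network of the basement membrane on which epithelia rest, the ovarian surface epithelium included, and other types attach to fibrils, form beaded filaments or span the cell membrane. Type I collagen is normally built from chains of both *Col1a1* and *Col1a2*, and the common form of type IV collagen from chains of both *Col4a1* and *Col4a2*. The discoidin domain receptors are receptor tyrosine kinases that are activated by the collagen triple helix itself. *Ddr1* is typical of epithelial cells and is activated by fibrillar and type IV collagens, and *Ddr2* is typical of mesenchymal cells and is activated by fibrillar collagens.

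The lines were read against cell type markers. All 8 markers of ovarian surface epithelium had lower means in STOSE cells, and 3 of them, *Krt7*, *Krt8* and *Krt19*, passed the test described below. The summed linear level of these markers was 22200 to 23500 in M0505 cells and 11900 to 13300 in STOSE cells. The 7 fibroblast markers summed to 459 to 524 and 1050 to 1240, with *Thy1* called higher in STOSE cells, and *Dpt*, *Fap*, *Pi16* and *Tcf21* were under background on every array, taken as 4.74, the 95th percentile of 1134 probe sets of olfactory receptor genes. The 6 smooth muscle and pericyte markers summed to 850 to 1130 and 2930 to 4020, with *Acta2* and *Tagln* called higher and *Cnn1* lower. The rise of that sum came mostly from *Acta2*, whose mean log2 value went from 9.24 to 11.57. *Myh11* and *Cspg4* were not called, with log2 fold changes of 0.04 and -0.19, and *Rgs5* was under background on every array. Endothelial markers summed to 860 to 940 in M0505 cells and 147 to 154 in STOSE cells, leukocyte markers to 818 to 1080 and 218 to 259, and granulosa markers to 886 to 1010 and 188 to 217. In each of these last 3 lists 1 marker was called, *Kdr*, *Cd68* and *Inha*, all lower, while 2 of the 6 endothelial markers (*Pecam1* and *Emcn*), *Ptprc*, *Emr1* and *Csf1r* of the leukocyte list and 2 of the 5 granulosa markers (*Fshr* and *Cyp19a1*) were under background on every array. *Cdh5* and *Tie1* of the endothelial list, *Cd3e* of the leukocyte list and *Foxl2* of the granulosa list were above it on every array and were not called. Means were higher in STOSE cells for 4 endothelial markers and lower for 2, for 5 and 1 leukocyte markers, and for 2 and 3 granulosa markers. The lower sum of each of these lists thus came mostly from its 1 called marker. In bulk RNA, fewer cells of a type and less RNA per cell cannot be told apart. The part of these marker differences in the collagen results was not tested.

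A gene was called changed where limma gave a Benjamini-Hochberg adjusted p under 0.05 over all 20405 genes and the means differed at least 2-fold. By this rule 1 of the 42 genes, *Ddr2*, was higher in STOSE cells, beside 4.9% of all genes. It called 4 of the 42 lower, *Col12a1*, *Col1a2*, *Ddr1* and *Col4a2*, beside 7.59% of all genes. With the adjusted p alone, 21 of the 42 were higher and 9 were lower, while 31.6% and 24.8% of all genes were. The arrays of the lines did not overlap for 33 of the 42, and for 64.6% of all genes. The counts of called genes thus lay close to what the whole array would give, whereas genes that were higher by adjusted p alone, and genes without overlap, were more frequent than on the whole array. The whole array is unlike the set in level, for both line means were under background for 5643 of the 20405 genes and for 1 of the 42. The part of this in the shares was not tested. The 37 genes that were not called had log2 fold changes between -0.95 and 0.95, and 30 of them were smaller than 0.5 in size. The 5 called genes ran from -2.91 to 5.53, and they are described below by role. Since a call needs a 2-fold change, the threshold itself separates the 2 groups by size.

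**Figure D1:**
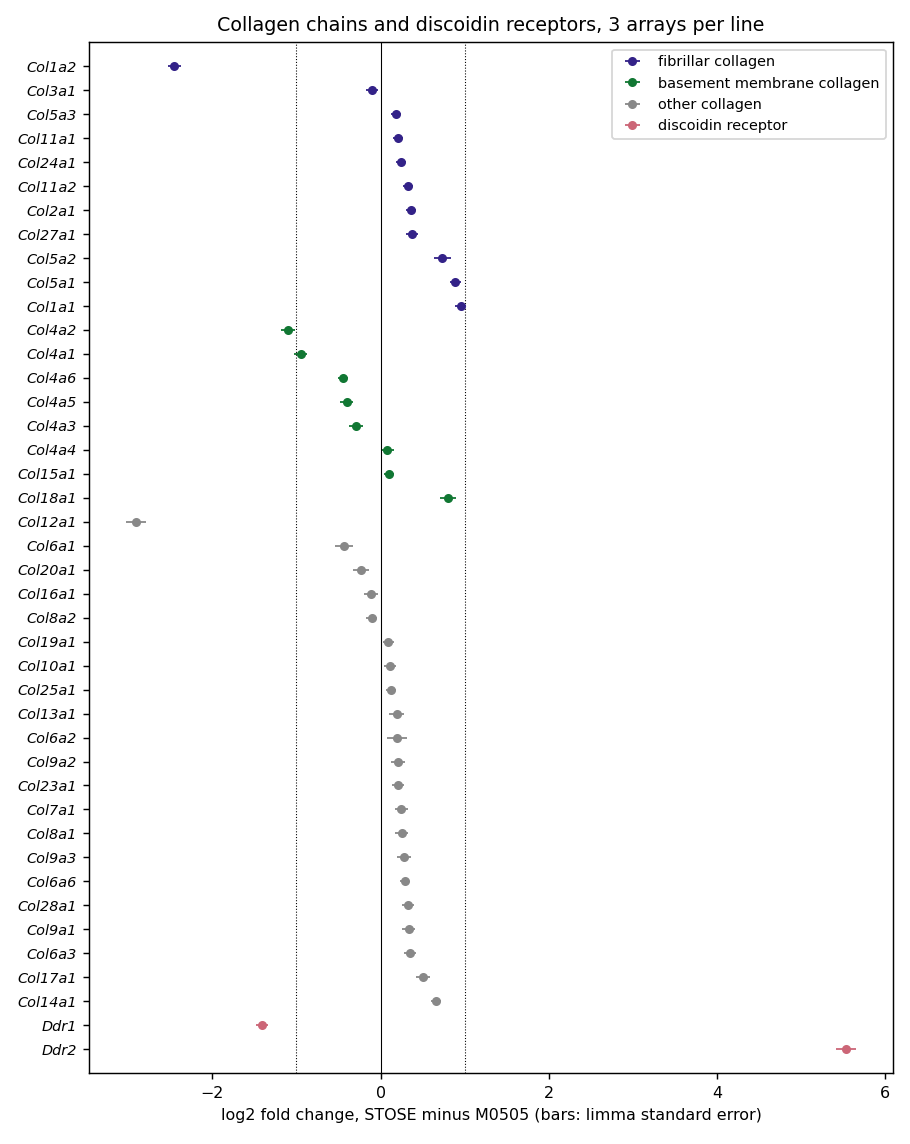
Log2 fold change of each of the 42 genes between the lines (horizontal axis, STOSE minus M0505, with the limma standard error as bars, 3 arrays per line), grouped and coloured by class. The dotted lines mark a 2-fold change. *Ddr2* stands at 5.53, *Col12a1* and *Col1a2* at -2.91 and -2.45, and most collagen chains lie between the dotted lines.

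The sequences before the transcript start are shown for the receptor that rose and for the collagens whose chains parted or fell together. They are from RefSeq on build GRCm38.p6 and were matched by symbol, while the build behind the array table is not given in the sources used here. Of the 42 genes, 35 had a promoter window, in 41 windows, and the windows of *Col1a1*, *Col2a1*, *Col4a3*, *Col5a2*, *Col9a3*, *Col12a1* and *Col14a1* were not used here. The 250 bases before each start were searched on both strands for the TATA box motif with the letters TATAAA, for the CCAAT motif and for the GC box motif with the letters GGGCGG, whose matches may overlap, and capitals mark the matches. The first lies on the minus strand of *Ddr2* at chr1:170088945-170089194, and the second on the plus strand of *Col1a2* at chr6:4505368-4505617.
Ddr2: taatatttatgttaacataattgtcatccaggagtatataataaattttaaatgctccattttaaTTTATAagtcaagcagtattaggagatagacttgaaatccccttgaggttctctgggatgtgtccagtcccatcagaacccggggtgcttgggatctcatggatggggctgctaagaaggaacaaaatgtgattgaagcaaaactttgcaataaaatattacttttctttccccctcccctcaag
Col1a2: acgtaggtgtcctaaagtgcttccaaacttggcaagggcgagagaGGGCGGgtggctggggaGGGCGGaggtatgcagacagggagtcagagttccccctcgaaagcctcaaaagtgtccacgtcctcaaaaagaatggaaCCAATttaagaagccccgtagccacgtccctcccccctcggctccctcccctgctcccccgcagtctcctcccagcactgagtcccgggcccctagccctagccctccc
The *Ddr2* window held 1 TATA box match on the opposite strand, no CCAAT, no GC box and 1 CpG. The *Col1a2* window held 1 CCAAT, 2 GC boxes and 11 CpGs. The genes *Col4a1* and *Col4a2* lie head to head on chromosome 8, and their transcripts start on opposite strands and overlap in 22 bases, chr8:11312805-11312826, which hold 4 CpGs and, inside both transcripts and not before them, 1 GC box. They are printed on the plus strand.
Col4a1 and Col4a2: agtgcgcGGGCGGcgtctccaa
Across the 41 windows, 56.1% held a GC box, beside 32.7% of all 32851 promoter windows in the table. A TATA box was in 14.6%, beside 12.4%, and CCAAT in 29.3%, beside 33.8%. The median number of CpGs was 9 in the collagen and receptor windows and 6 in all. A match describes the letters and is no evidence that a factor binds there.

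The receptors moved in opposite directions. *Ddr2* had log2 values of 4.18, 4.52 and 4.66 on the M0505 arrays and 10.11, 9.87 and 9.98 on the STOSE arrays. All 3 M0505 values were under background and all 3 STOSE values were far above it. The difference was 5.53 ± 0.12 (SE, n = 3 arrays per line, limma adjusted p = 1.13e-08), and since the M0505 level is only an upper limit, the level in STOSE cells was at least 38.0-fold higher when M0505 was set at the background value. *Ddr1* had values of 11.02, 11.24 and 11.26 in M0505 cells and 9.72, 9.80 and 9.78 in STOSE cells. It was thus lower on every STOSE array, by 2.66-fold (log2 fold change -1.41 ± 0.08 SE, limma adjusted p = 1.36e-06), and remained well above background in both lines.

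The M0505 cells therefore had signal from 1 of the discoidin receptors and the STOSE cells from both. On each array the *Ddr2* value minus the *Ddr1* value measures how the balance of the pair moved, although its absolute size also holds the binding of the probes. With *Ddr2* set at background on the M0505 arrays, it was at most -6.43 on average there, and it was 0.22 ± 0.16 (SD, n = 3) in STOSE cells. The ratio of *Ddr2* to *Ddr1* signal was therefore at least 101-fold higher in STOSE cells, with no overlap between arrays. The exact permutation test, two-sided, gave p = 0.1, the smallest that 3 against 3 arrays allow, and 0.157 after adjustment over 11 such pairs.

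Of the 9 measured genes of a list of 10 other collagen receptors, only *Gpr56* was called, and it was lower, beside 7.59% of all genes. This adhesion receptor, which binds type III collagen, had values of 11.27, 11.39 and 11.31 in M0505 cells and 7.06, 7.79 and 7.85 in STOSE cells, a difference of -3.76 ± 0.19 (SE, limma adjusted p = 8.51e-07). No integrin chain was called. *Itgb1*, the common partner of the collagen-binding integrins, had a log2 fold change of -0.18, and the alpha chains *Itga1*, *Itga2*, *Itga10* and *Itga11* lay between 0.08 and 0.20. The endocytic collagen receptor *Mrc2* had a log2 fold change of -0.45 (limma adjusted p = 0.00336), short of 2-fold.

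**Figure D2:**
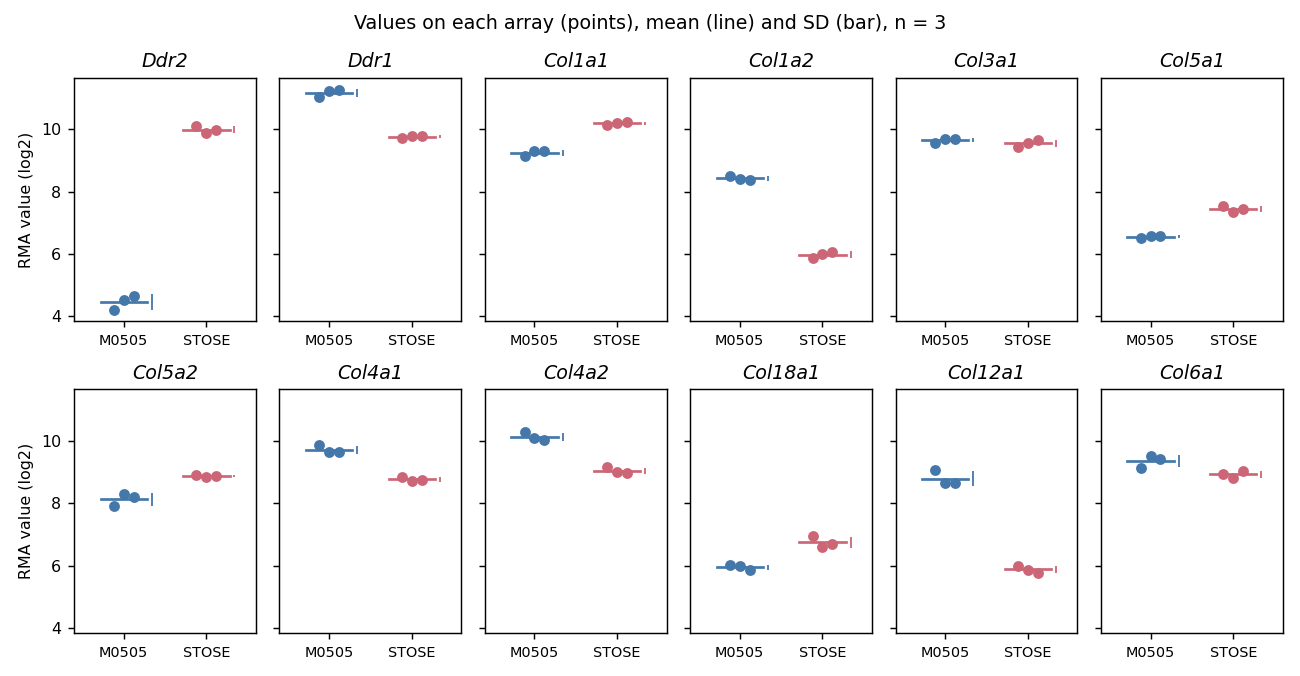
RMA values on the log2 scale (vertical axis) for 12 genes on each of the 3 M0505 and 3 STOSE arrays (points), with the mean as a line and the SD as a bar. *Ddr2* goes from 4.45 to 9.99 and *Col12a1* from 8.79 to 5.88, *Col1a1* and *Col1a2* move apart, and *Col3a1* overlaps between the lines.

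Among the fibrillar chains, which make the collagens that activate both receptors, the chains of type I collagen parted. *Col1a2* had values of 8.52, 8.40 and 8.36 in M0505 cells and 5.87, 5.99 and 6.07 in STOSE cells. It was 5.48-fold lower in STOSE cells (log2 fold change -2.45 ± 0.07 SE, limma adjusted p = 6.04e-08). *Col1a1*, which encodes its partner chain, had values of 9.13, 9.30 and 9.29 in M0505 cells and 10.14, 10.20 and 10.25 in STOSE cells. Every STOSE array was above every M0505 array for *Col1a1*, and the difference of 0.95 ± 0.07 (SE, limma adjusted p = 6.5e-06) was just short of 2-fold. The *Col1a1* value minus the *Col1a2* value went from 0.82 ± 0.17 to 4.22 ± 0.05 (SD, n = 3 each), so the ratio of their signals was 10.6-fold higher in STOSE cells (exact permutation p = 0.1, adjusted 0.157).

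*Col3a1*, the chain of type III collagen, which commonly lies in the same fibrils as type I, had overlapping values. They were 9.57, 9.70 and 9.68 in M0505 cells and 9.44, 9.55 and 9.66 in STOSE cells, with a log2 fold change of -0.10 ± 0.07 (SE, limma adjusted p = 0.266). The chains of type V collagen, which helps to start type I fibrils and limits their width, were all higher by adjusted p without reaching 2-fold. *Col5a1* had values of 6.51, 6.57 and 6.58 in M0505 cells and 7.54, 7.34 and 7.45 in STOSE cells (log2 fold change 0.89 ± 0.07 SE). *Col5a2* had values of 7.90, 8.30 and 8.20 in M0505 cells and 8.90, 8.83 and 8.87 in STOSE cells (log2 fold change 0.73 ± 0.10 SE). For both genes the lines did not overlap. *Col5a1* was measured by another probe set too, which gave a smaller difference of 0.38 ± 0.06 (SE). *Col5a3*, the remaining type V chain, had a log2 fold change of 0.19 (limma adjusted p = 0.0304).

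The remaining fibrillar chains differed little between the lines. These were *Col2a1*, *Col11a1* and *Col11a2*, known from cartilage, with *Col24a1* and *Col27a1*, and their log2 fold changes ran from 0.21 to 0.37. In total 9 of the 11 fibrillar chains were higher and 1 was lower by adjusted p alone, beside 31.6% and 24.8% of all genes, and the median of the class was 0.33, beside 0.08 over all genes. The class median was 0.53 when each array was centred on its median, a step that moved the median of all genes from 0.08 to 0.28. With that step *Col1a1* reached 1.15 and was called.

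Small positive differences were common among dim genes on these arrays, which bears on how the low chains can be read. When the 20405 genes were split at the middle by their mean value, 71.1% of the dimmer genes had a higher mean in STOSE cells, with a median of 0.10, and 50.4% of the brighter genes did, with a median of 0.00. Of the 26 collagen and receptor genes in the dimmer part, with means up to 6.42, 23 were higher, with a median of 0.22. Of the 16 in the brighter part, 6 were higher, and their median was -0.26. The part that this property of dim genes has in the small differences of single chains was not tested. This split was chosen after the values were seen.

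Of the 8 basement membrane chains, 5 had a lower mean in STOSE cells and 3 a higher one, beside 8018 and 12387 of all 20405 genes. Only 1 was called, *Col4a2*, which was lower, beside 7.59% of all genes. *Col4a1* had values of 9.87, 9.64 and 9.65 in M0505 cells and 8.84, 8.72 and 8.75 in STOSE cells, a log2 fold change of -0.95 ± 0.08 (SE, limma adjusted p = 1.53e-05). *Col4a2* had values of 10.29, 10.10 and 10.04 in M0505 cells and 9.16, 9.00 and 8.98 in STOSE cells, a log2 fold change of -1.10 ± 0.08 (SE, limma adjusted p = 9.81e-06). Both genes were about 1 log2 unit lower on every STOSE array, and the 2-fold threshold fell between them, so that only *Col4a2* was called. With arrays centred on their median, *Col4a2* had a log2 fold change of -0.90 and was no longer called. Their difference on each array hardly moved, from -0.43 ± 0.03 to -0.28 ± 0.04 (SD, n = 3 each), a ratio of 1.11, although the arrays of the lines did not overlap (exact permutation p = 0.1, adjusted 0.157).

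The minor type IV chains, which build special networks such as those of the kidney and eye, differed less. *Col4a5* and *Col4a6*, neighbouring genes on the X chromosome, had log2 fold changes of -0.40 ± 0.07 and -0.45 ± 0.06 (SE, limma adjusted p = 0.00188 and 0.000423). The difference within that pair overlapped between the lines. *Col4a3* had a log2 fold change of -0.29 (limma adjusted p = 0.0217) and *Col4a4* of 0.08 (limma adjusted p = 0.42). Thus 5 of the 6 type IV chains were lower by adjusted p alone, beside 24.8% of all genes, and none was higher, beside 31.6%. *Col18a1*, whose protein is a collagen with heparan sulphate chains and the source of endostatin, was the only basement membrane chain that was higher by adjusted p alone. It had values of 6.01, 5.98 and 5.85 in M0505 cells and 6.94, 6.61 and 6.69 in STOSE cells (log2 fold change 0.80 ± 0.09 SE, limma adjusted p = 0.000119), and *Col15a1*, of the same family, had a log2 fold change of 0.10. The median of the 8 was -0.35, and -0.15 with arrays centred on their median.

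The other collagens held the largest fall of the 42 genes. *Col12a1*, whose protein sits on the surface of type I fibrils, had values of 9.06, 8.65 and 8.65 in M0505 cells and 5.99, 5.87 and 5.77 in STOSE cells. It was 7.52-fold lower in STOSE cells (log2 fold change -2.91 ± 0.12 SE, limma adjusted p = 3.15e-07). *Col14a1*, a close relative that also coats fibrils, had values of 4.76, 4.64 and 4.65 in M0505 cells, of which 2 were under background, and 5.29, 5.37 and 5.35 in STOSE cells (log2 fold change 0.66 ± 0.06 SE, limma adjusted p = 3.05e-05), and the difference was 0.59 with those 2 arrays set at background. The 8 measured chains of the fibril-associated group held no other called gene, and the 7 not called lay between -0.23 and 0.66. The M0505 means of those 7 ran from 4.69 to 6.84.

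The chains of type VI collagen, which forms beaded filaments around cells, differed among themselves. *Col6a1* had values of 9.14, 9.53 and 9.42 in M0505 cells and 8.93, 8.82 and 9.04 in STOSE cells (log2 fold change -0.43 ± 0.11 SE, limma adjusted p = 0.00786). *Col6a2*, its neighbour on chromosome 10, had a log2 fold change of 0.20 ± 0.12 (SE, limma adjusted p = 0.197), and its arrays overlapped. The *Col6a1* value minus the *Col6a2* value went from 1.24 ± 0.06 to 0.60 ± 0.07 (SD, n = 3 each), a 1.55-fold change of their ratio with no overlap between arrays (exact permutation p = 0.1, adjusted 0.157). *Col6a3* had a log2 fold change of 0.35 and *Col6a6* of 0.29, with values between 5.36 and 6.35 on all arrays. The transmembrane collagens, *Col13a1*, *Col17a1*, *Col23a1* and *Col25a1*, ran from 0.13 to 0.50, with *Col17a1* of the hemidesmosome at the top. The anchoring fibril chain *Col7a1* had 0.25, and the network chains *Col8a1*, *Col8a2* and *Col10a1* had 0.25, -0.11 and 0.12, *Col10a1* being under background on all arrays.

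**Figure D3:**
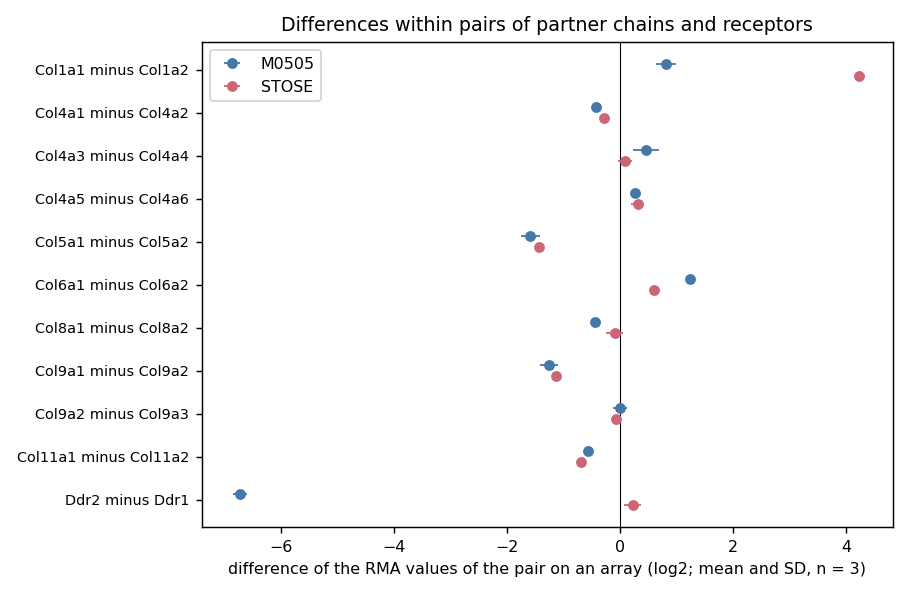
Difference between the RMA values of 2 genes on the same array (horizontal axis, log2) for 11 pairs of partner chains or receptors, as the mean and SD of 3 M0505 and 3 STOSE arrays. Only the shift between the lines can be read, since the position also reflects the probes. The pair of receptors is drawn from its measured values, which shift by 6.94, but its M0505 point is only an upper limit, and at background the shift is at least 6.66. The type I pair shifts by 3.40, and the other 9 pairs by -0.63 to 0.36.

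Of the 11 pairs, 7 did not overlap between the lines and 4 did. Among single genes 64.6% did not overlap, and the share among other pairs of genes was not counted. Those that overlapped were *Col4a5* with *Col4a6*, *Col5a1* with *Col5a2*, and both pairs of type IX collagen, *Col9a1* with *Col9a2* and *Col9a2* with *Col9a3*. Apart from the receptors and type I, the shifts of the pairs lay between -0.63 and 0.36. Genes of the set that are next to each other in RefSeq order did not always move alike. *Col3a1* and *Col5a2* on chromosome 1 had log2 fold changes of -0.10 and 0.73, whereas *Col4a1* and *Col4a2* had -0.95 and -1.10.

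The machinery that modifies, exports and cross-links collagen chains was measured for 37 of 38 listed genes. Here 6 were called higher and 1 lower, beside 4.9% and 7.59% of all genes. By adjusted p alone 16 were higher and 16 lower, beside 31.6% and 24.8% of all genes. The median log2 fold change was 0.00, beside 0.08 over all genes. The count of lower genes was 2 without M0505 replicate 1, 3 without M0505 replicate 3 and 2 without STOSE replicate 3.

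Hydroxylation of prolines and lysines, which steadies the triple helix and prepares cross-links, accounted for 4 of the 6 genes that rose. *Leprel1*, a prolyl 3-hydroxylase, had values of 4.52, 5.00 and 4.93 in M0505 cells and 9.20, 8.90 and 8.77 in STOSE cells, a log2 fold change of 4.14 ± 0.15 (SE, limma adjusted p = 1.5e-07). The first of the M0505 values was under background, and with a floor at background the log2 fold change was 4.06. The size rested on the chosen probe set, for the mean of the *Leprel1* probe sets gave 2.20, which was still called. *Lepre1*, of the same enzyme family, rose by 1.19 ± 0.06 and *P4ha2*, a catalytic subunit of prolyl 4-hydroxylase, by 1.57 ± 0.09 (SE, log2 scale). *Plod2*, the lysyl hydroxylase that acts on the ends of the chains, also rose by 1.57 (SE 0.07). In the same group *P4ha1* and *P4ha3*, the other catalytic subunits, had log2 fold changes of -0.39 and -0.98, and neither was called.

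Of the later steps, *Glt25d1*, a galactosyltransferase that adds sugar to hydroxylysine, rose by 1.62 ± 0.06 (SE, log2 scale). That call rested on the chosen probe set, for the mean of its probe sets gave 0.91. None of the 10 genes of folding and export was called, among them the collagen chaperone *Serpinh1* at 0.14. *Pcolce2*, an enhancer of the enzyme that trims the C-terminal propeptide, had values of 4.84, 5.28 and 5.05 in M0505 cells and 8.93, 9.17 and 9.02 in STOSE cells, a rise of 3.98 ± 0.12 (SE, limma adjusted p = 4.73e-08). That enzyme itself, *Bmp1*, and the related enhancer *Pcolce* had log2 fold changes of -0.92 and -0.59, and the N-propeptidases *Adamts2*, *Adamts3* and *Adamts14* ran from -0.82 to -0.58.

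Among the 5 lysyl oxidases, which form the cross-links, *Loxl1* fell. Its values were 10.89, 11.02 and 11.02 in M0505 cells and 6.28, 7.03 and 7.06 in STOSE cells, a log2 fold change of -4.19 ± 0.19 (SE, limma adjusted p = 5e-07). *Lox* had the opposite sign, with values of 10.03, 10.56 and 10.46 in M0505 cells and 11.19, 11.38 and 11.46 in STOSE cells, and at 0.996 (SE 0.137, limma adjusted p = 0.00032) it was just short of 2-fold. *Loxl2* had a log2 fold change of -0.86, *Loxl3* of 0.31 and *Loxl4* of 0.54.

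**Figure D4:**
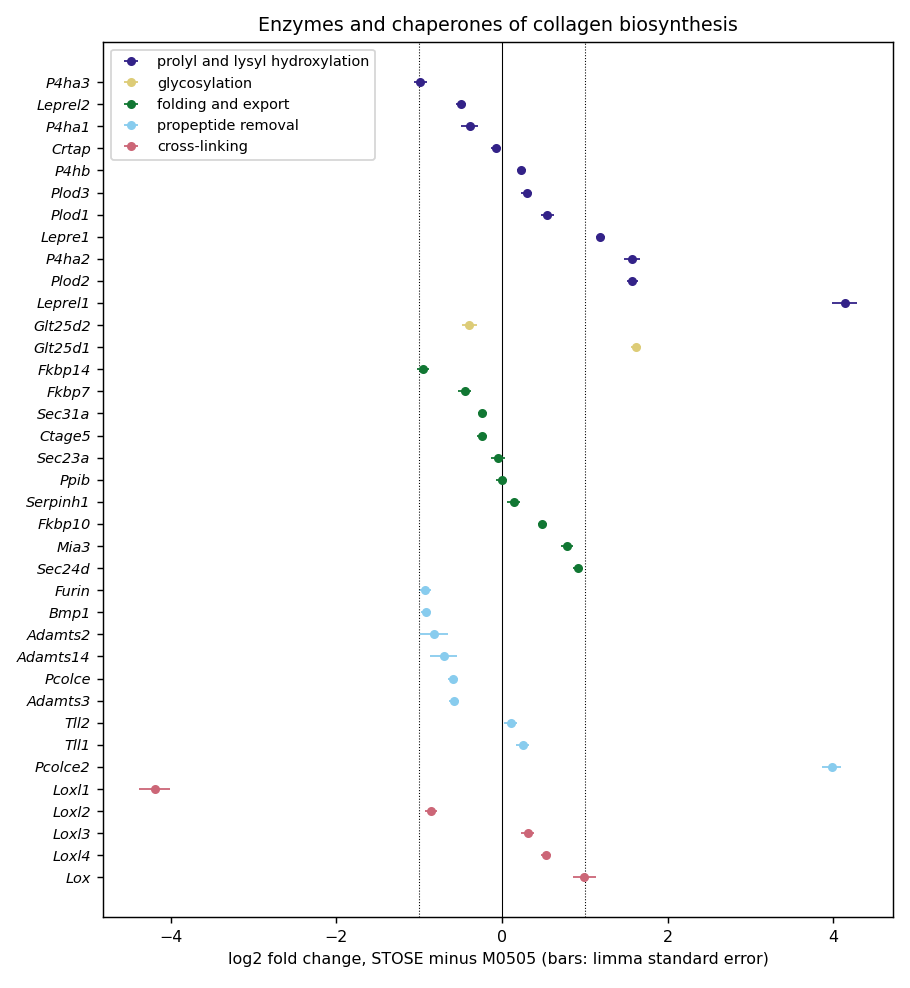
Log2 fold change (horizontal axis, STOSE minus M0505, with the limma standard error as bars, 3 arrays per line) of the 37 measured genes of collagen biosynthesis, coloured by step. *Leprel1* and *Pcolce2* stand near 4 on the right, at 4.14 (2.20 with its probe sets averaged) and 3.98, and *Loxl1* at -4.19 on the left, and the dotted lines mark a 2-fold change.

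Genes whose proteins lie with these collagens in the matrix were read next. Of 13 fibril partners, 2 were called higher and 2 lower, beside 4.9% and 7.59% of all genes. Of these, *Prelp* and *Fmod*, both small leucine-rich proteoglycans that bind fibrils, rose by 2.13 ± 0.15 and 1.45 ± 0.12, while their relative *Ogn* fell by 1.25 (SE 0.09) and the matrix glycoprotein gene *Fbln2* by 1.09 (SE 0.11). The *Fbln2* call was lost without STOSE replicate 1, at -0.98, after a further quantile normalization, at -0.94, and with arrays centred on their median, at -0.89. Decorin (*Dcn*) and biglycan (*Bgn*) had log2 fold changes of -0.45 and -0.64 and were not called.

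Of 14 measured basement membrane partners, 3 were called, all of them laminin chains that were lower, beside 7.59% of all genes. *Lama1* had values of 8.97, 8.71 and 8.63 in M0505 cells and 4.62, 5.00 and 4.68 in STOSE cells, of which 2 were under background, a log2 fold change of -4.01 ± 0.12 (SE, limma adjusted p = 6.02e-08). *Lama4* fell by 1.23 (SE 0.11) and *Lamb2* by 1.54 (SE 0.09). The type IV network linkers *Nid2* and *Hspg2* had log2 fold changes of 0.41 and 0.44, so not all partners had the sign of the type IV chains.

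Both lines are aneuploid, and so the genes around the called collagens were read as well, by RefSeq order. The median log2 fold change of the chromosomes that carry them, 1, 6, 8, 9 and 17, lay between 0.05 and 0.12, beside 0.08 over all genes. On chromosome 6, 3 of the 10 nearest genes of *Col1a2* were called lower, beside 7.59% of all genes. They were *Sgce*, *Peg10* and *Ppp1r9a*, at -4.99, -5.21 and -2.79, and they lie on one side of *Col1a2*, with *Casd1* at -0.80 between. *Sgce* and *Peg10* are known as imprinted genes. The 5 nearest genes on the other side lay between -0.22 and 0.19.

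Around *Col12a1* on chromosome 9, 4 of the 10 nearest genes were called lower and 1 higher, beside 7.59% and 4.9% of all genes. Those called lower were *Filip1* at -3.04, *Slc17a5* at -1.53, *Myo6* at -1.38 and *Cd109* at -1.06, and *E330016A19Rik* was called higher at 1.95. *Cox7a2* and *Tmem30a*, which stand next to *Col12a1* on one side, had log2 fold changes of -0.06 and -0.07. Near *Col4a1* and *Col4a2* on chromosome 8, *Tnfsf13b*, *Carkd* and *Rab20* were called lower at -2.37, -1.89 and -1.55 and *Irs2* was called higher at 1.09. All 10 neighbours of *Ddr2* had positive log2 fold changes, from 0.09 to 1.37. *Nuf2* at 1.37 was the only one called, beside 4.9% of all genes called higher. *Ddr1* likewise had 1 called neighbour of 10, *Mdc1*, which was higher at 1.07. Copy number was not measured here, and its part in these values was not tested.

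**Figure D5:**
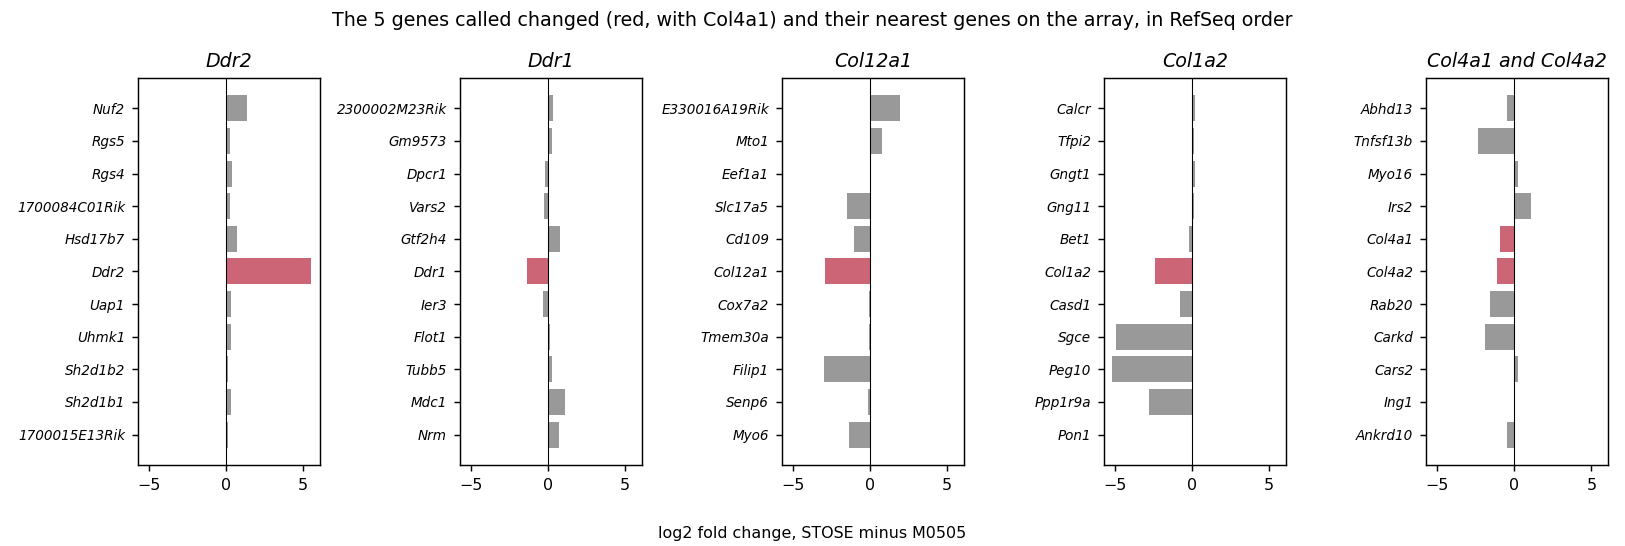
Log2 fold change (horizontal axis, STOSE minus M0505) of the 5 genes called changed and *Col4a1* (red bars) and of the nearest genes on the array on either side (grey bars), in RefSeq order from top to bottom. *Sgce*, *Peg10* and *Ppp1r9a* fall with *Col1a2*, to as low as -5.21, and the neighbours of *Ddr2* lie between 0.09 and 1.37.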

How the data were processed

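RNA of 3 M0505 and 3 STOSE preparations was hybridized to 1-colour Affymetrix Mouse Gene 1.0 ST arrays. The authors summarized the arrays by RMA, which corrects background, quantile normalizes and combines the probes of a probe set, and deposited log2 values in 1 table. The submitters' processing notes name Affymetrix Expression Console and RMA, and versions and genome build are not given in the sources used here. The deposited table also holds line means and linear fold changes of the authors, which were not used. Signals of single probes were not used here, so the normalization could be added to but not replaced. An array has no read depth, and the number of arrays limits precision.

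Of 28944 probe sets, 23530 had a gene symbol and stood for 20405 genes, read from the probe set with the highest mean. Groups came from the sample titles. Lines were compared in R 4.3.3 by limma 3.58.1 (lmFit, then eBayes), without covariates, with Benjamini-Hochberg adjustment over all genes. A call needed an adjusted p under 0.05 and 2-fold. The code was tested on simulated data. Pairs of genes were compared by exact permutation in scipy 1.17.1. Genes named singly are the receptors, the called chains and their partner chains, and called genes of the lists, and others are named where values are set beside these, after their values were seen. The collagen set, its classes and all gene lists were chosen with earlier results of these data known, so they are described by counts and medians without a set test. In all 19 alternative settings were tried.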

Additional observations from a re-analysis of the deposited data

How the results depend on the processing

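Precision is limited by 3 arrays per line, and values under 4.74, the background level, have no order. *Ddr2*, *Col1a2* and *Col12a1* kept their direction and their call under every alternative, and *Ddr1* under every one but a 4-fold threshold, where its -1.41 is too small. The settings were a further quantile normalization, centring on the array median over genes or, chosen after seeing the data, over all probe sets, a test without the dimmest 25% or 50% of genes, averaged probe sets, limma with trend and robust estimation, the methods' t-test with Benjamini-Hochberg adjustment, a floor at background, the replicate block, each array left out, and no or a 4-fold threshold.

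The collagen and receptor genes called higher were 2 after quantile normalization, which adds *Col5a1*, and 4 after centring on the median of the genes, which adds *Col1a1*, *Col5a1* and *Col18a1* and shifts the median of all genes by 0.20. With no fold threshold 21 were higher and 9 lower, and at 4-fold 2 were lower. Centring turned the sign of *Col3a1*, *Col8a2* and *Col16a1*, of which none had passed the adjusted p, and quantile normalization that of *Col16a1*. Biosynthesis genes called higher were 16 with no fold threshold and 2 at 4-fold, and those called lower were 16 with no fold threshold. The fibrillar median was 0.51 after quantile normalization, 0.53 after centring and 0.54 over the 6 chains left without the dimmest 50% of genes. The basement membrane median was -0.22, -0.15 and -0.70 (4 chains) under the same settings. The median of the other collagens was 0.26 and 0.40, and it reversed to -0.27 over the 4 chains left without the dimmest 50%, since only the brighter chains enter it.

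Leaving out 1 array at a time gave 5.40 to 5.64 for *Ddr2* and -1.48 to -1.37 for *Ddr1*. The collagen and receptor genes called stayed at 1 higher and 4 lower. Biosynthesis genes called were 6 to 7 higher and 1 to 3 lower. The medians ran from 0.30 to 0.36 for fibrillar, -0.38 to -0.29 for basement membrane and 0.15 to 0.24 for other collagens.

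The labels do not say whether the replicate numbers pair the samples. Deviations of same-numbered arrays correlated at 0.256, 0.042 and 0.249 across genes, and 5 of 6 arrays correlated best with their own number, a hint from the data only. With the replicate block, 1 collagen or receptor gene was higher and 4 were lower, and no call among them changed.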
